A study of Homo sapiens with 16 samples.

Results

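The 9 genes described here make, trim, load and display the peptides of MHC class I: HLA-B, HLA-C, B2M, TAP1, TAP2, PSMB8, PSMB9, NLRC5 and ERAP1. They were chosen by name with earlier results of these data known, as were the other gene lists below. Counts of such genes beside the shares of all genes are therefore descriptions. Each Ensembl gene ID of the deposited table was matched to its GENCODE symbol, and all 9 members were found among its 28951 genes. Total RNA had been sequenced from 4 human lines of non-small cell lung cancer (H460, H1703, HCC827, H441), each grown in RPMI with 10% serum and kept for 48 hours either in vehicle (DMSO) or in 5 µM MYCi975 together with 25 µM TMP195, here called the combination. MYCi975 is a small-molecule inhibitor of the transcription factor MYC, and TMP195 inhibits the class IIa histone deacetylases. Each of the 8 groups had 2 libraries, and the series names H460 and H1703 as responsive and HCC827 and H441 as non-responsive. The single agents were not analysed here. The labels do not say whether both libraries of a group stem from different cultures, so p-values measure only how far such libraries spread, which may be technical.

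Class I molecules show fragments of a cell's own proteins to CD8 T cells. Proteasomes, some carrying the interferon-inducible subunits PSMB8 and PSMB9, cut proteins into peptides. The TAP1 and TAP2 transporter moves these into the endoplasmic reticulum, where ERAP1 trims them before they bind a heavy chain (HLA-B or HLA-C) paired with beta-2-microglobulin (B2M). NLRC5 is a transactivator that binds at class I promoters, and interferon acts on many of these genes through IRF and STAT factors. Loss of B2M, the transporter or the heavy chains is a known route by which lung cancers escape T cells.

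Gene counts had been deposited after a variance-stabilising log2 transformation, on which 0.48 is 0 reads, and undoing the transformation returned reads within 0.02 of a whole number for 100% of the values. Each library held between 8493271 and 13604150 reads over its listed genes. Changes are combination minus vehicle on that log2 scale with the standard error of 1 limma fit, and a gene is called when its Benjamini-Hochberg adjusted p over 23968 tested genes is under 0.05. The standard error is pooled over the 8 groups. Where lines are said not to differ beyond their spread, this pooled spread is meant. Normalised reads are recovered reads divided by a size factor per library. Of the marker lists, all 6 epithelial markers were in the table, and their summed level was 232 to 265 normalised reads in the 4 H1703 libraries against 27747 to 101128 in the libraries of the other lines. CDH1, the epithelial cadherin, had 20 reads in H1703 vehicle and 3 with the combination, and EPCAM had 2 and 14. KRT7 rose in H460 (1.25 ± 0.18) and KRT8 fell in HCC827 (-0.57 ± 0.09). The KRT7 call was lost with only the H460 libraries (adjusted p = 0.0859). Of the 8 leukocyte markers, 2 were in the table, with a summed level of 0.788 to 56.3 normalised reads over the 16 libraries. Of the 8 fibroblast and endothelial markers, 5 were in the table, at 3.9 to 240 in sum. COL1A1, a collagen, fell in H460 (-2.15 ± 0.45, from 135 to 21 reads) and in HCC827 (-1.51 ± 0.45, from 120 to 44 reads). Its HCC827 call was lost without any 1 of the 4 HCC827 libraries and in other alternatives. Among these were no filter on low values (adjusted p = 0.0518) and a replicate block (0.0555). VWF had 0 reads in H1703 vehicle and 10 with the combination, and the other listed markers were not analysed here. In bulk RNA, fewer cells with a transcript and less of it per cell cannot be told apart.

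Promoter sequence was available from RefSeq (GRCh38.p14) for 8 of the 9 members in 11 windows of 250 bases before and 50 bases after a start site. NLRC5 had no entry. The windows of HLA-B and HLA-C are shown because these near-identical genes gave different values in the same libraries, those of B2M, TAP1 and PSMB9 because they had the lowest changes in H1703, and that of TAP2 because no read of it was counted in 2 of the 4 lines. They run 5′ to 3′ on the strand of the gene, and capitals mark matches on either strand to the core of the interferon response element bound by IRF factors (GAAA, any 2 bases, GAAA), the NF-Y box (CCAAT) or the core of the cyclic AMP response element (TGACG).
HLA-B, chr6:31357130-31357429, minus strand: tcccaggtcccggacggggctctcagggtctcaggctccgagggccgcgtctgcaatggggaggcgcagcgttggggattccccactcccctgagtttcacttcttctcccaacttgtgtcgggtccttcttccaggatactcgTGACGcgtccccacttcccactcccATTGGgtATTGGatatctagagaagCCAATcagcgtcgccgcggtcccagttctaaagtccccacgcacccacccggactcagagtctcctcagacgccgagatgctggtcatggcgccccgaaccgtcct
HLA-C, chr6:31272043-31272342, minus strand: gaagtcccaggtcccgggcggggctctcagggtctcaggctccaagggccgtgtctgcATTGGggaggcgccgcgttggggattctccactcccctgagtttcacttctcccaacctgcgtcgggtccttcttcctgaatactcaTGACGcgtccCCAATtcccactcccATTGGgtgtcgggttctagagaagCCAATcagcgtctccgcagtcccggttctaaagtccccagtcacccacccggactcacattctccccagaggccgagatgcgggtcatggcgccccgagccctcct
B2M, chr15:44711267-44711566, plus strand: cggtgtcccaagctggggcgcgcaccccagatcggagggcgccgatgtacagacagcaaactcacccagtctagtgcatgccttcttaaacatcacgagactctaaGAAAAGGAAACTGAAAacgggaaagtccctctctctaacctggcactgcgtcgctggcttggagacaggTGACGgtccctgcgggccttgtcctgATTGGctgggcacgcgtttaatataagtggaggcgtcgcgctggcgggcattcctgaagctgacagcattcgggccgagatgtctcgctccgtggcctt
TAP1, first of 2 windows, chr6:32853655-32853954, minus strand: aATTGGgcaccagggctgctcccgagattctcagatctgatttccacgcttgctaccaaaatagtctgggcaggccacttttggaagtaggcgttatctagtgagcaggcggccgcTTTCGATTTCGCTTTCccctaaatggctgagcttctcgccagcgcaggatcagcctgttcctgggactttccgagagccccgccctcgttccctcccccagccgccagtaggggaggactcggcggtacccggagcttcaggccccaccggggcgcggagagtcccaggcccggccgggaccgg
PSMB9, chr6:32853942-32854241, plus strand: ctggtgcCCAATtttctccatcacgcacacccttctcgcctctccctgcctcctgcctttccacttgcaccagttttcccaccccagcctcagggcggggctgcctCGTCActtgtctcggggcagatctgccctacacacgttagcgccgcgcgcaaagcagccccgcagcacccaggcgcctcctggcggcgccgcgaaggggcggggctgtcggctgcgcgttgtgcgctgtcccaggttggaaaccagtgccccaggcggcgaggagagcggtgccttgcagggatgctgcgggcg
TAP2, chr6:32838690-32838989, minus strand: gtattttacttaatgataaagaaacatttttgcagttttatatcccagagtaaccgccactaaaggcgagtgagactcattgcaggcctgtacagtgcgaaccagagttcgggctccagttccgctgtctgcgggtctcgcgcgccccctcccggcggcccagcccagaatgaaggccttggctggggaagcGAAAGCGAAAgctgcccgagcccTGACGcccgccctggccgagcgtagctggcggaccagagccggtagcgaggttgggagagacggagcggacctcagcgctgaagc

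The HLA-B and HLA-C windows were alike at 90.9% of their aligned bases, with 269 identical and 27 mismatched bases and 8 gap bases. Both held 1 CRE core and NF-Y boxes, which numbered 3 in HLA-B and 4 in HLA-C, and neither held the IRF core at the spacing searched. B2M held 2 overlapping matches to the IRF core between positions -144 and -129, with the start site counted as position 0. TAP1 held 2 between -134 and -119, and TAP2 held 1 from -58 to -49. PSMB8, from -4 to 5 in its second window, and ERAP1, from 2 to 11 in its first, also held the core. Among all 35116 RefSeq windows of this length the IRF core was in 3.57%, the NF-Y box in 34.6% and the CRE core in 24.6%. The start sites of TAP1 and PSMB9 lay 488 bases apart on opposite strands, so their windows shared 13 bases, and the NF-Y box marked near the 5′ end of each (chromosome 6, 32853949 to 32853953) is the same one. The E box CACGTG, the sequence bound by MYC with its partner MAX, was in none of the 11 windows and in 7.26% of all windows. The gamma-activated site TTCNNNGAA, an element of interferon gamma signalling, was in the second windows of TAP1 and PSMB8 and in 7.66% of all windows. The kappa B pattern (GGG, any 5 bases, CC) is loose, being in 58.7% of all windows. HLA-B matched it on both strands with GGGGATTCCC at -177 to -168. The first ERAP1 window did so too, with GGGGCTTCCC at -73 to -64, and the first TAP1 window held 5 matches, the most. A match is a description of the letters and no site of binding.

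**Figure D1:**
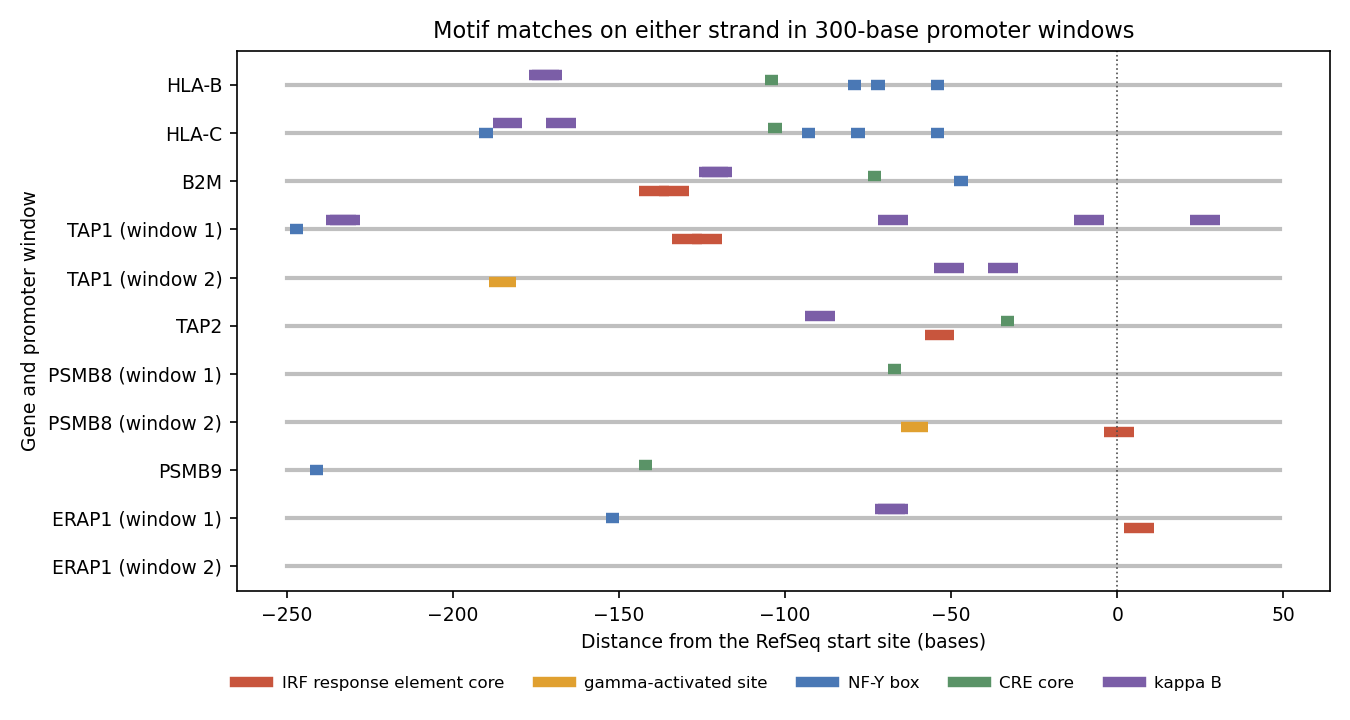
Matches to 5 motifs on either strand in the 11 promoter windows of 8 members, by distance in bases from the RefSeq start site (vertical dotted line). Grey lines are windows and coloured bars are matches. The E box was also searched and is absent from the 11 windows, and the IRF core appears in windows of 5 members (B2M, TAP1, TAP2, PSMB8 and ERAP1).

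Before any treatment effect, the lines differed in class I genes widely. HLA-C (ENSG00000204525, chromosome 6, 31268749 to 31272130), a heavy chain that is also read by receptors of natural killer cells, had 1335 and 1870 reads in the 2 H1703 vehicle libraries. H460 vehicle had 6 and 1, HCC827 had 50 and 59, and H441 had 56 and 57. On the log2 scale the group means were 10.35 in H1703, 6.01 in H441, 5.98 in HCC827 and 2.31 in H460. HCC827 and H441 did not differ beyond the pooled spread (difference -0.038 ± 0.55, adjusted p = 0.992), and the other 5 pairs were called. That pooled spread includes H460, with SDs of 1.09 in vehicle and 1.47 with the combination. The SDs were 0.014 in HCC827 vehicle and 7.5e-05 in H441 vehicle (n = 2). Over the 6 pairs of lines, the share of all tested genes called in either direction was 46.4% for H460 and H1703, 50.3% for H460 and HCC827, 54.2% for H460 and H441, 50.7% for H1703 and HCC827, 52.1% for H1703 and H441 and 44.7% for HCC827 and H441.

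HLA-B (ENSG00000234745, chromosome 6, 31269491 to 31357188), the other heavy chain, took a different order. Vehicle libraries had 212 and 329 reads in H1703 and 170 and 175 in H441, whose levels did not differ beyond their spread (0.21 ± 0.28, adjusted p = 0.576). HCC827 vehicle had 7 and 13 reads and H460 vehicle 4 and 3, and HCC827 was above H460 by 1.27 (H460 minus HCC827 -1.27 ± 0.28, adjusted p = 0.000751). H441 was thus like H1703 in HLA-B, while in HLA-C it was 4.34 ± 0.55 below H1703 (adjusted p = 2.24e-05). The gene models of HLA-B and HLA-C overlap on the same strand and their sequences are near copies, so reads may have been split between them or lost by the counting, and the handling of reads that fit more than 1 place is not stated in the labels.

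B2M (ENSG00000166710, chromosome 15, 44711487 to 44718877), the light chain shared by the class I molecules, differed by at most 0.79 between vehicle groups, the smallest range of the 9 genes. Its vehicle reads were 808 and 910 in H460, 520 and 556 in H441, 356 and 519 in HCC827 and 453 and 609 in H1703. H460 was above HCC827 by 0.66 ± 0.15 (adjusted p = 0.00118) and above H1703 by 0.79 ± 0.15 (adjusted p = 0.000212). Neighbours in that order did not differ beyond their spread, with adjusted p = 0.0581 for H460 and H441, 0.116 for HCC827 and H441 and 0.501 for H1703 and HCC827. The first of these was called with voom (adjusted p = 0.0239) and in 4 fits with a combination library left out (0.036 to 0.0433), and the second with median centring (-0.50, adjusted p = 0.0122). H1703 was below H441 by the test (-0.44 ± 0.15, adjusted p = 0.0207), a call lost with any of the 4 vehicle libraries of these lines left out (adjusted p up to 0.101).

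TAP1 was counted in all 4 lines and its partner TAP2 in 2 of them. TAP1 (ENSG00000168394, chromosome 6, 32845209 to 32853978) had 702 and 852 reads in H1703 vehicle, 165 and 216 in H460, 43 and 47 in HCC827 and 35 and 33 in H441. H1703 was above H460 by 1.93 (H460 minus H1703 -1.93 ± 0.17, adjusted p = 8e-09), H460 above HCC827 by 1.68 ± 0.17 (adjusted p = 5.57e-08), and HCC827 and H441 did not differ beyond their spread (0.40 ± 0.17, adjusted p = 0.0645; 0.0476 with neither trend nor robust settings). TAP2 (ENSG00000204267, chromosome 6, 32821833 to 32838780), the partner of TAP1 in the transporter, ran the other way. It had 0 reads in all 8 libraries of H460 and H1703, 11 and 15 in HCC827 vehicle and 9 and 8 in H441 vehicle. TAP2 passed the filter on low values only through HCC827 and H441. Taking 3 reads per group as the floor where none was counted, TAP2 was at least 11-fold higher in HCC827 vehicle than in H460 and at least 11.7-fold higher than in H1703, and at least 7.11-fold and 7.61-fold higher in H441, bounds that leave out the counting error of the group with reads. HCC827 and H441 did not differ beyond the pooled spread in TAP2 (0.50 ± 0.49, adjusted p = 0.446, and 0.0366 with neither trend nor robust settings). The SDs of these vehicle groups were 0.11 each (n = 2).

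A count of 0 in every library of a line is not rare in this table. Of 123 tested genes in the surrounding region (chromosome 6, 29000000 to 34000000), 10, or 8.13%, had 0 reads in all libraries of 1 line and at least 5 in each library of another, against 7.79% of all other tested genes. The TAP2 gene model overlaps AL669918.1 on the same strand, a gene not in the table, and whether reads were lost to that overlap was not tested.

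The inducible proteasome subunits PSMB8 and PSMB9 also differed among lines. PSMB8 (ENSG00000204264, chromosome 6, 32840717 to 32844703) had 321 and 324 reads in H1703 vehicle and 207 and 211 in H441, which did not differ beyond their spread (0.22 ± 0.16, adjusted p = 0.286). HCC827 had 101 and 135 and H460 128 and 165, and these also did not differ beyond their spread (-0.021 ± 0.16, adjusted p = 0.939), both lying below the first pair. PSMB9 (ENSG00000240065, chromosome 6, 32844136 to 32859585) had 197 and 228 reads in H1703 vehicle, 28 and 37 in H460, 12 and 27 in HCC827 and 9 and 8 in H441. H1703 was above H460 by 2.52 (H460 minus H1703 -2.52 ± 0.31, adjusted p = 9.65e-07), while H460 and HCC827 did not differ beyond their spread (0.44 ± 0.31, adjusted p = 0.256). H441 was the lowest, although HCC827 against H441 (0.93 ± 0.31, adjusted p = 0.0187) lost its call without HCC827 Vehicle 2 (0.53, adjusted p = 0.254) or H441 Vehicle 2 (0.86, adjusted p = 0.0875), with median centring (0.74, adjusted p = 0.0606), with quantile normalisation (0.66, adjusted p = 0.0913) and with voom (adjusted p = 0.077).

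NLRC5 (ENSG00000140853, chromosome 16, 56989485 to 57083531), the class I transactivator, was lowest in the line where HLA-C, TAP1 and PSMB9 were highest. Its vehicle reads were 113 and 169 in H460, 62 and 70 in HCC827, 66 and 41 in H441 and 36 and 25 in H1703. H1703 was below H460 (H460 minus H1703 2.17 ± 0.30, adjusted p = 5.1e-06), below HCC827 (-1.45 ± 0.30, adjusted p = 0.000417) and below H441 (-1.11 ± 0.30, adjusted p = 0.00403), and the last of these calls was lost without H1703 Vehicle 2 (-0.66, adjusted p = 0.117) or H441 Vehicle 1 (-0.77, adjusted p = 0.0871). HCC827 did not differ beyond its spread from H441 (0.34 ± 0.30, adjusted p = 0.396). H460 minus HCC827 (0.71 ± 0.30, adjusted p = 0.0577) did not pass but was called in 8 alternatives, among them median centring (0.88, adjusted p = 0.0204), quantile normalisation (0.0369), voom (0.0107) and 5 fits with a library left out (0.0368 to 0.0489). ERAP1 (ENSG00000164307, chromosome 5, 96760810 to 96808100), the trimming aminopeptidase, had 2024 and 2925 reads in H1703 vehicle, 883 and 1167 in H460, 868 and 904 in H441 and 524 and 716 in HCC827. H441 and H460 did not differ beyond their spread in ERAP1 (-0.12 ± 0.094, adjusted p = 0.292), H1703 was above both, and HCC827 below both.

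**Figure D2:**
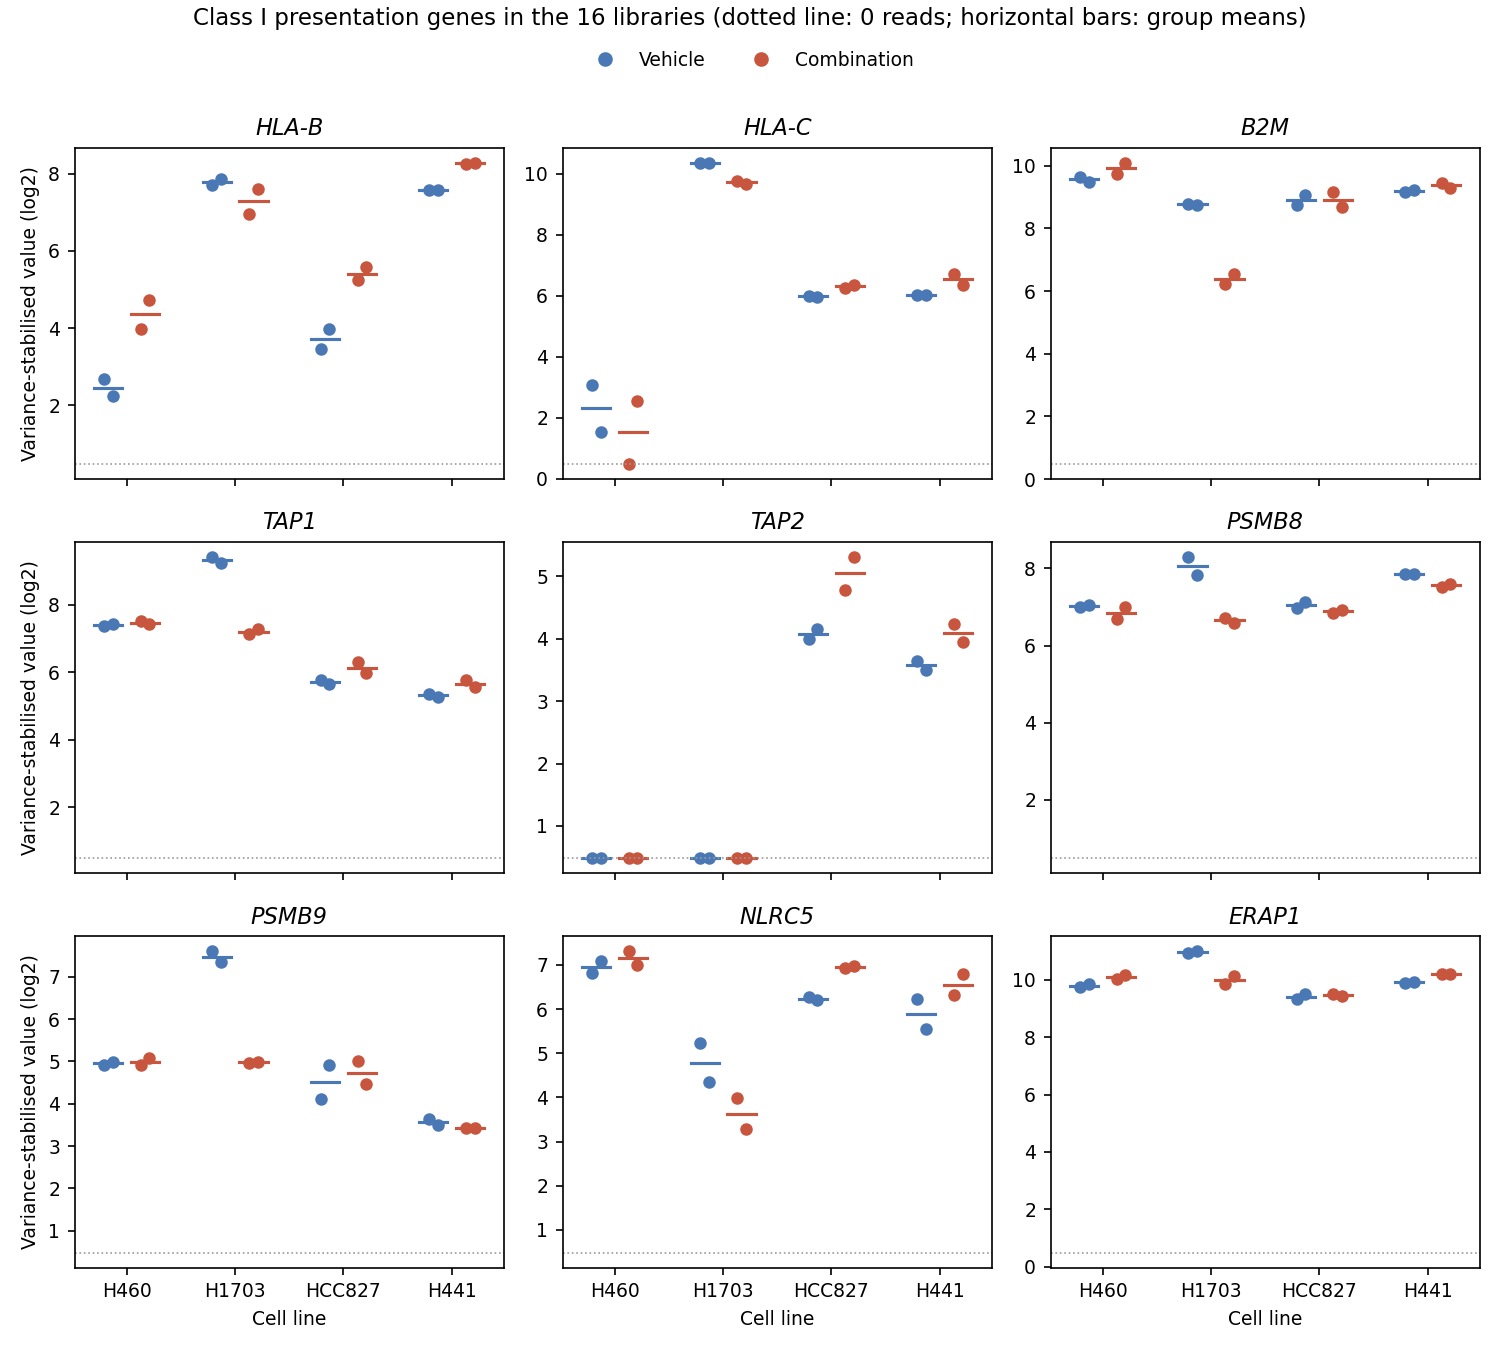
Variance-stabilised log2 values of the 9 genes in each of the 16 libraries, by line; points are libraries, horizontal bars are the means of 2 libraries, the dotted line at 0.48 is 0 reads, and each panel has its own vertical scale. B2M, TAP1 and PSMB9 drop with the combination in H1703, HLA-B lies higher with it in the other 3 lines, and TAP2 sits at 0 reads in H460 and H1703.

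In H1703 the combination lowered 6 of the 9 genes and raised none: B2M, TAP1, PSMB9, PSMB8, NLRC5 and ERAP1 fell. Of all tested genes 17.6% were called lower in that line and 17.9% higher. The median change of the members was -1.16, where that of all tested genes was 0.082. The fall reached the light chain, the transporter subunit TAP1, the inducible subunits PSMB8 and PSMB9, the peptidase and the transactivator, while the changes of the heavy chains HLA-B and HLA-C did not pass the test.

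B2M had 453 and 609 reads in the 2 vehicle libraries of H1703 and 66 and 115 with the combination, or 434 ± 10.3 and 81.2 ± 13.3 normalised reads (SD, n = 2). The groups did not overlap, and the change was -2.39 ± 0.15 (adjusted p = 2.41e-10). Lack of overlap, here and below, says little with 2 libraries a group, and its share over all tested genes is not given. Uncalled changes lacked overlap too, such as PSMB8 in HCC827 (adjusted p = 0.654) and PSMB9 in H441 (0.898). TAP1 had 702 and 852 reads in vehicle and 126 and 192 with the combination, from 640 ± 61.4 to 144 ± 9.96 normalised reads. Its change was -2.13 ± 0.17 (adjusted p = 4.95e-09), which took it from the highest level among the lines to near the H460 level of 166 ± 6.01.

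PSMB9 went from 197 and 228 reads to 26 and 37 in H1703, or from 176 ± 22.7 to 28.7 ± 0.596 normalised reads. This was the lowest change of the 9 genes (-2.50 ± 0.31, adjusted p = 2.09e-06), and the treated level stood beside the 28.2 ± 1.21 of H460 vehicle. PSMB8, its partner in the immunoproteasome, went from 321 and 324 reads to 94 and 119, and from 270 ± 60.6 to 98.1 ± 6.07 normalised reads. It fell by 1.42 (-1.42 ± 0.16, adjusted p = 7.31e-07), again with no overlap between the groups. ERAP1 had 2024 and 2925 reads in vehicle and 857 and 1441 with the combination. In normalised reads that was 2010 ± 55.2 and 1034 ± 143, a change of -0.96 ± 0.094 (adjusted p = 8.47e-08). The calls of B2M, TAP1, PSMB8, PSMB9 and ERAP1 in H1703 held in every alternative that was run, with ERAP1 between -1.21 and -0.76.

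NLRC5 had few reads in H1703, 36 and 25 in vehicle and 12 and 9 with the combination. It fell by 1.16 (-1.16 ± 0.30, adjusted p = 0.00474), but the call rested on single libraries: it was lost without H1703 Vehicle 1 (-0.71, adjusted p = 0.132), without H1703 Combo 2 (-0.81, adjusted p = 0.0934) and with only the 4 libraries of the line (adjusted p = 0.111). HLA-C went from 1335 and 1870 reads to 786 and 1029, and from 1305 ± 7.03 to 833 ± 31.9 normalised reads. These libraries did not overlap, yet the change of -0.65 ± 0.55 was not called (adjusted p = 0.42). The standard error of HLA-C is pooled over lines that include H460 with 0 to 6 reads a library, and with only the H1703 libraries the same change passed (adjusted p = 0.00308), as it did with voom weights on the recovered reads (adjusted p = 9.16e-07). HLA-B had 212 and 329 reads in vehicle and 112 and 244 with the combination, a change of -0.50 ± 0.28 (adjusted p = 0.183). It passed under median centring of the libraries (-0.74, adjusted p = 0.0432) and with voom (-0.47, adjusted p = 0.0211). Centring shifted all changes in H1703 by -0.24 and those in H460 by -0.19.

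In H460, named responsive like H1703, 2 members rose and none fell, with 14.1% of all tested genes called higher and 12.6% lower. HLA-B went from 4 and 3 reads to 13 and 21, or 3.14 ± 1.1 to 18.6 ± 7.56 normalised reads. The change was 1.90 ± 0.28 (adjusted p = 2.58e-05), and the ratio of the summed reads was 6, with a 95% counting interval of 2.62 to 16. ERAP1 had 883 and 1167 reads in vehicle and 1039 and 998 with the combination, which after scaling was 891 ± 38.3 and 1099 ± 55.6. Its small rise (0.30 ± 0.094, adjusted p = 0.0208) was lost with median centring (0.11, adjusted p = 0.468), without H460 Vehicle 1 (adjusted p = 0.143) or Combo 2 (0.125), with only the line's libraries (0.0847) and with neither trend nor robust settings (0.102).

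B2M in H460 had 808 and 910 reads in vehicle and 829 and 960 with the combination, and its change of 0.35 ± 0.15 did not pass (adjusted p = 0.0978). It passed without H460 Combo 1 (0.54, adjusted p = 0.0301) and with voom (adjusted p = 0.0251). HLA-C had 6 and 1 reads in H460 vehicle and 0 and 3 with the combination, which is 0.529 times as many (95% counting interval 0.0883 to 2.32). At this depth no change of HLA-C in H460 was detectable, although the fit without H460 Combo 2 called -1.83 (adjusted p = 0.00174) with 0 reads left in that group. TAP1 (0.082 ± 0.17), PSMB8 (-0.18 ± 0.16), PSMB9 (0.041 ± 0.31) and NLRC5 (0.20 ± 0.30) did not pass, and TAP1 (-0.11) and PSMB9 (-0.15) changed sign with median centring.

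In HCC827 HLA-B was the 1 member called, against 4.42% of tested genes called higher and 5.5% lower. It had 7 and 13 reads in vehicle and 30 and 49 with the combination, or 10.8 ± 3.31 and 40.2 ± 7 normalised reads. The change was 1.69 ± 0.28 (adjusted p = 0.000513) and the groups did not overlap. NLRC5 stood at 62 and 70 reads in vehicle and 102 and 134 with the combination (0.72 ± 0.30, adjusted p = 0.157), and passed with voom (adjusted p = 0.0489) and with only the line's libraries (adjusted p = 0.0472). TAP2 had 11 and 15 reads in vehicle and 21 and 40 with the combination (0.96 ± 0.49, adjusted p = 0.266), and passed with neither trend nor robust settings (adjusted p = 0.0141). TAP1 (0.42 ± 0.17, adjusted p = 0.132), HLA-C (0.34 ± 0.55), PSMB9 (0.23 ± 0.31), ERAP1 (0.064 ± 0.094), B2M (0.017 ± 0.15) and PSMB8 (-0.15 ± 0.16) did not pass. The standard error of HLA-C is pooled with H460, which had 0 to 6 reads a library.

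In H441 limma called 0 of the 9 members, where 2.77% of tested genes were called higher and 1.86% lower. At an unadjusted p under 0.05, 3 members were higher and 0 lower. The share of all tested genes at that looser threshold is not given here, nor the share called by voom. The adjusted shares above do not apply to either, so neither count can be weighed. With voom, 1 member was called higher, HLA-B. That gene had 170 and 175 reads in vehicle and 301 and 342 with the combination, 189 ± 1.52 and 307 ± 5.13 normalised reads. The 2 groups of libraries did not overlap, and the change of 0.69 ± 0.28 had adjusted p = 0.187 in the main test and 0.0052 with voom. ERAP1 (0.29 ± 0.094, adjusted p = 0.0831) and NLRC5 (0.66 ± 0.30, adjusted p = 0.269) were the other members under 0.05 before adjustment. TAP2 went from 9 and 8 reads to 16 and 14 (0.51 ± 0.49, adjusted p = 0.682). PSMB8 (-0.30 ± 0.16, adjusted p = 0.369) and PSMB9 (-0.15 ± 0.31, adjusted p = 0.898) were the members with a negative change. With 2-fold changes simulated at these library sizes, 88% were recovered in H441, and 46% of 1.5-fold changes. Those changes were placed only in genes well covered in the vehicle groups of all 4 lines. The shares therefore do not apply to HLA-B, HLA-C, TAP2 or PSMB9, which were below that cut in at least 1 line.

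**Figure D3:**
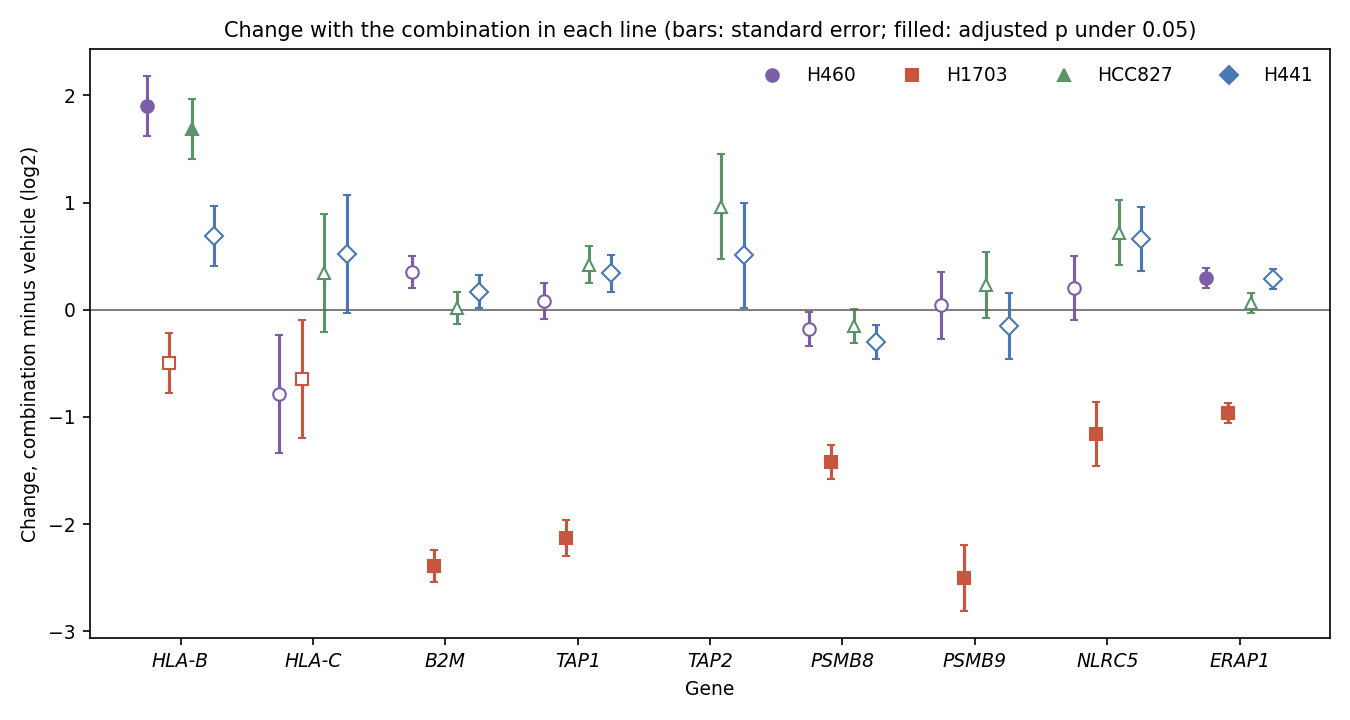
Change of each member with the combination (log2, combination minus vehicle) in the 4 lines, with the standard error of the fit as bars and filled symbols where adjusted p was under 0.05. TAP2 has no point in H460 and H1703, where it had 0 reads; the filled squares of H1703 lie between -2.50 and -0.96, and HLA-B is filled at 1.90 in H460 and 1.69 in HCC827.

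Whether the lines responded differently was tested directly. The moderated F test over the 4 line changes called 7 of the 9 members, where it called 31.8% of all tested genes. They were B2M (adjusted p = 1.79e-08), TAP1 (1.58e-07), ERAP1 (6.82e-07), PSMB9 (0.000145), HLA-B (0.000251), PSMB8 (0.000433) and NLRC5 (0.00509). HLA-C (adjusted p = 0.426) and TAP2 (0.605) did not pass, although HLA-C passed without H460 Combo 2 and TAP2 with neither trend nor robust settings (0.0338). For TAP2 this test cannot compare the responses of the 4 lines, as H460 and H1703 had 0 reads of it. The NLRC5 call was lost without H1703 Vehicle 1 (adjusted p = 0.0596), without H1703 Combo 2 (0.0507) and with neither trend nor robust settings (0.0503).

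Set by class as the series names them, the response of the responsive lines minus that of the non-responsive lines was lower for 6 members, where 12.1% of tested genes were called lower and 11.2% higher. The differences were -1.40 ± 0.17 for TAP1, -1.27 ± 0.31 for PSMB9, -1.17 ± 0.30 for NLRC5, -1.11 ± 0.15 for B2M, -0.57 ± 0.16 for PSMB8 and -0.51 ± 0.094 for ERAP1. The PSMB8 call was lost without H1703 Vehicle 1 (-0.46, adjusted p = 0.0507), and HLA-C (-1.14 ± 0.55, adjusted p = 0.175) passed without H460 Vehicle 2 (-1.53, 0.0279) or Combo 2 (-1.66, 0.00111), as did TAP2 (-0.74 ± 0.49, adjusted p = 0.323) with neither trend nor robust settings (0.0146). TAP2 had 0 reads in both responsive lines, so its difference holds only the changes in HCC827 and H441 and cannot compare the classes. The 2 responsive lines did not share the falls of the 6 members, as none was called lower in H460. B2M changed by 0.35 in H460 and by -2.39 in H1703. The error of the class test is the spread between libraries of a group. It holds no spread between lines of a class, so its p-values do not speak for responsive lines in general. A contrast of H1703 with the mean of the other 3 lines, added after the values were seen and so a description of a difference already in view, gave -2.57 ± 0.18 for B2M, -2.54 ± 0.36 for PSMB9, -2.41 ± 0.20 for TAP1, -1.93 ± 0.32 for HLA-B, -1.69 ± 0.35 for NLRC5, -1.21 ± 0.19 for PSMB8 and -1.18 ± 0.11 for ERAP1. In it 14.1% of tested genes were called lower and 10.7% higher. H1703 is also the line with the lowest summed level of epithelial markers, and the part of that difference between lines in these responses was not tested.

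Over all 4 lines the mean change of HLA-B was 0.95 ± 0.14 (adjusted p = 1.8e-05), the 1 member called higher, with 18.4% of tested genes called higher. The means of PSMB9 (-0.60 ± 0.16), PSMB8 (-0.51 ± 0.081), B2M (-0.46 ± 0.076) and TAP1 (-0.32 ± 0.084) were called lower, against 16.7% of tested genes. B2M and TAP1 had a called negative change in H1703. Their changes in the other 3 lines were above 0 but not called in the main fit. B2M in HCC827 (0.017 ± 0.15) and TAP1 in H460 (0.082 ± 0.17) were within their standard error of no change. PSMB8 had a negative change in each of the 4 lines and passed in H1703.

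The order of members over the 8 group means is given as a description, since the groups share lines and libraries. TAP1 and PSMB9, whose start sites adjoin, had a Pearson correlation of 0.93, while TAP1 and the TAP2 subunit had -0.81. TAP2 had 0 reads in both groups of H460 and of H1703. Its value thus mainly restates that the lines without TAP2 reads had more TAP1. HLA-B with HLA-C had 0.73, B2M with NLRC5 0.88, and HLA-C with NLRC5 -0.83. Among 21501 other genes, the 3 most like TAP1 were PSMB8-AS1 (0.984), USP14 (0.962) and CACNA1G (0.962). Those most like HLA-B were TRMT12 (0.992), RHPN1 (0.973) and PRKCZ-AS1 (0.972), and those most like NLRC5 were EXT2 (0.990), PCDHGA1 (0.984) and TMEM79 (0.981).

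PSMB8-AS1 is an antisense RNA whose gene model overlaps PSMB8, PSMB9 and TAP1, with 303 reads over the 16 libraries. It had 78 and 88 reads in H1703 vehicle and 12 and 15 with the combination, and its change of -2.24 ± 0.39 was called (adjusted p = 0.000105). The libraries came from a stranded kit, but the labels do not state whether the counting used strand, so reads of these overlapping genes may not be fully told apart. TAP1 and PSMB9 also overlap each other in the annotation on opposite strands, as do PSMB8 and PSMB9. ERAP1 overlaps CAST, which lies on the other strand with 73370 reads over the 16 libraries. CAST changed by -0.15 ± 0.072 in H1703 (adjusted p = 0.105), against the -0.96 of ERAP1. AC008906.1, also on the other strand from ERAP1 and with 2060 reads in all, fell in H1703 (-0.90 ± 0.16, adjusted p = 0.000178). AL671883.2, which overlaps HLA-B on the other strand with 205 reads, was not called there (-1.07 ± 0.55, adjusted p = 0.146).

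Other genes of heavy chains and peptide loading moved unevenly. Of 11 such genes, 3 rose and 2 fell in H460, 2 rose and 5 fell in H1703, and 1 rose and none fell in each of HCC827 and H441. Among all tested genes, 14.1% rose and 12.6% fell in H460, and 17.9% rose and 17.6% fell in H1703. These shares were 4.42% and 5.5% in HCC827 and 2.77% and 1.86% in H441. HLA-E, a heavy chain that inhibits natural killer cells, rose in H1703 (0.70 ± 0.18, adjusted p = 0.00355), a call lost with median centring (0.46, adjusted p = 0.0611).

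ERAP2, the second trimming peptidase, went from 1025 and 1355 reads to 145 and 204 in H1703 and fell by 2.59 (-2.59 ± 0.15, adjusted p = 4.18e-11), with no call in the other 3 lines. TAPBP, the tapasin that holds class I at the transporter, had 181 and 265 reads in H1703 vehicle and 32 and 89 with the combination and fell by 1.81 (-1.81 ± 0.26, adjusted p = 1.12e-05). In H460 TAPBP was called higher (0.72 ± 0.26, adjusted p = 0.0434). That call was lost without any 1 of the 4 H460 libraries and in most other alternatives. Among these were no filter on low values (adjusted p = 0.0547), median centring (0.53, 0.139) and voom (0.066). Calreticulin (CALR), a chaperone of the loading complex, fell in H460 (-0.87 ± 0.062) and H1703 (-0.57 ± 0.062).

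Of 8 proteasome caps and catalytic subunits, 3 fell in H460 and 7 in H1703, none rose in any line, and none was called in HCC827 or H441. The shares of all tested genes called lower were 12.6% in H460 and 17.6% in H1703. The median change in H1703 was -0.68. PSME1 and PSME2, the 2 subunits of the interferon-inducible PA28 cap, fell in H1703 by 0.86 (-0.86 ± 0.088) and 0.97 (-0.97 ± 0.13). PSME3, a related nuclear cap, fell by 1.16 (-1.16 ± 0.086), and PSMB6, a constitutive catalytic subunit that PSMB9 replaces, by 0.61 (-0.61 ± 0.13). PSMB10, the other interferon-inducible catalytic subunit, was the 1 gene of the list not called in H1703, with 8 and 24 reads in vehicle and 12 and 12 with the combination (-0.046 ± 0.35, adjusted p = 0.969).

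Of 18 transcription factors that act at class I promoters, 3 rose and 9 fell in H1703, 4 rose and 4 fell in H460, and 1 rose and none fell in each of HCC827 and H441. The all-gene shares, higher and lower, were 17.9% and 17.6% in H1703 and 14.1% and 12.6% in H460. They were 4.42% and 5.5% in HCC827 and 2.77% and 1.86% in H441. IRF1, which binds the IRF core, had 605 and 771 reads in H1703 vehicle and 183 and 231 with the combination. It fell there by 1.55 (-1.55 ± 0.16, adjusted p = 1.52e-07). Its change was -0.43 ± 0.16 in H460 (adjusted p = 0.0493), a call lost in most alternatives (-0.16, adjusted p = 0.585, without H460 Vehicle 1), and -0.17 ± 0.16 in HCC827 and -0.053 ± 0.16 in H441, which did not pass. STAT2, a partner in type I interferon signalling, rose in H460 (0.80 ± 0.13) and in H1703 (0.52 ± 0.13, lost with median centring, 0.27, adjusted p = 0.134, and without H1703 Vehicle 2, 0.38, adjusted p = 0.0844). RELB, a subunit of the alternative NF-kB pathway, rose in H460 (1.46 ± 0.22) and was not called elsewhere. Its H460 call was lost with only the line's libraries (adjusted p = 0.0585). IRF9, the DNA-binding partner of STAT2, was called in H460 on 2 reads in vehicle and 12 with the combination (1.46 ± 0.48, adjusted p = 0.0277). That call was lost without H460 Vehicle 1 (adjusted p = 0.0804), Vehicle 2 (0.104) or Combo 1 (0.96, adjusted p = 0.248).

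Of 22 interferon-stimulated genes, 21 were tested. In H1703 none rose and 8 fell, in H460 2 rose and 4 fell, in H441 2 rose and none fell, and none was called in HCC827. Among all tested genes, 17.9% rose and 17.6% fell in H1703, 14.1% and 12.6% in H460, and 2.77% and 1.86% in H441. Their median change was -0.85 in H1703, and between -0.18 and 0.073 in the other lines. OAS3, a sensor of double-stranded RNA, fell by 2.60 in H1703 (-2.60 ± 0.12) and by 0.96 in H460 (-0.96 ± 0.12). IFIT3, which binds viral RNA complexes, had 41 reads in H1703 vehicle and 11 with the combination, a call lost without H1703 Combo 2 (-0.65, adjusted p = 0.128). XAF1 also fell in H1703 (-1.46 ± 0.47), from 177 to 51 reads, and that call was lost without H1703 Vehicle 2 (-1.24, adjusted p = 0.151), Combo 1 (0.0601) or Combo 2 (0.111). GBP2, an interferon-induced GTPase, was called in H460 on 7 reads in vehicle and 1 with the combination, a call lost without H460 Vehicle 1 (adjusted p = 0.191), Vehicle 2 (0.0578) or Combo 1 (-0.72, adjusted p = 0.345).

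Of 13 interferon receptors and signalling genes, 10 were in the table and tested. In H460 4 rose and 1 fell, in H1703 2 rose and 4 fell, in HCC827 1 fell, and in H441 1 rose and 1 fell. The all-gene shares, higher and lower, were 14.1% and 12.6% in H460 and 17.9% and 17.6% in H1703. They were 4.42% and 5.5% in HCC827 and 2.77% and 1.86% in H441. JAK2, a kinase of the interferon gamma receptor, rose in H460 (0.71 ± 0.16) and H1703 (0.69 ± 0.16). IFNAR1, a chain of the type I interferon receptor, fell in H1703 (-0.65 ± 0.12) and H441 (-0.44 ± 0.12). The H441 call was lost without any 1 of the 4 H441 libraries and in other alternatives, among them median centring (-0.43, adjusted p = 0.0642). IFNGR1 rose in H460 (0.50 ± 0.16) and TYK2 fell in H460 (-0.37 ± 0.13) and H1703 (-0.38 ± 0.13), and each of these 3 calls was lost in 6 or more alternatives.

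**Figure D4:**
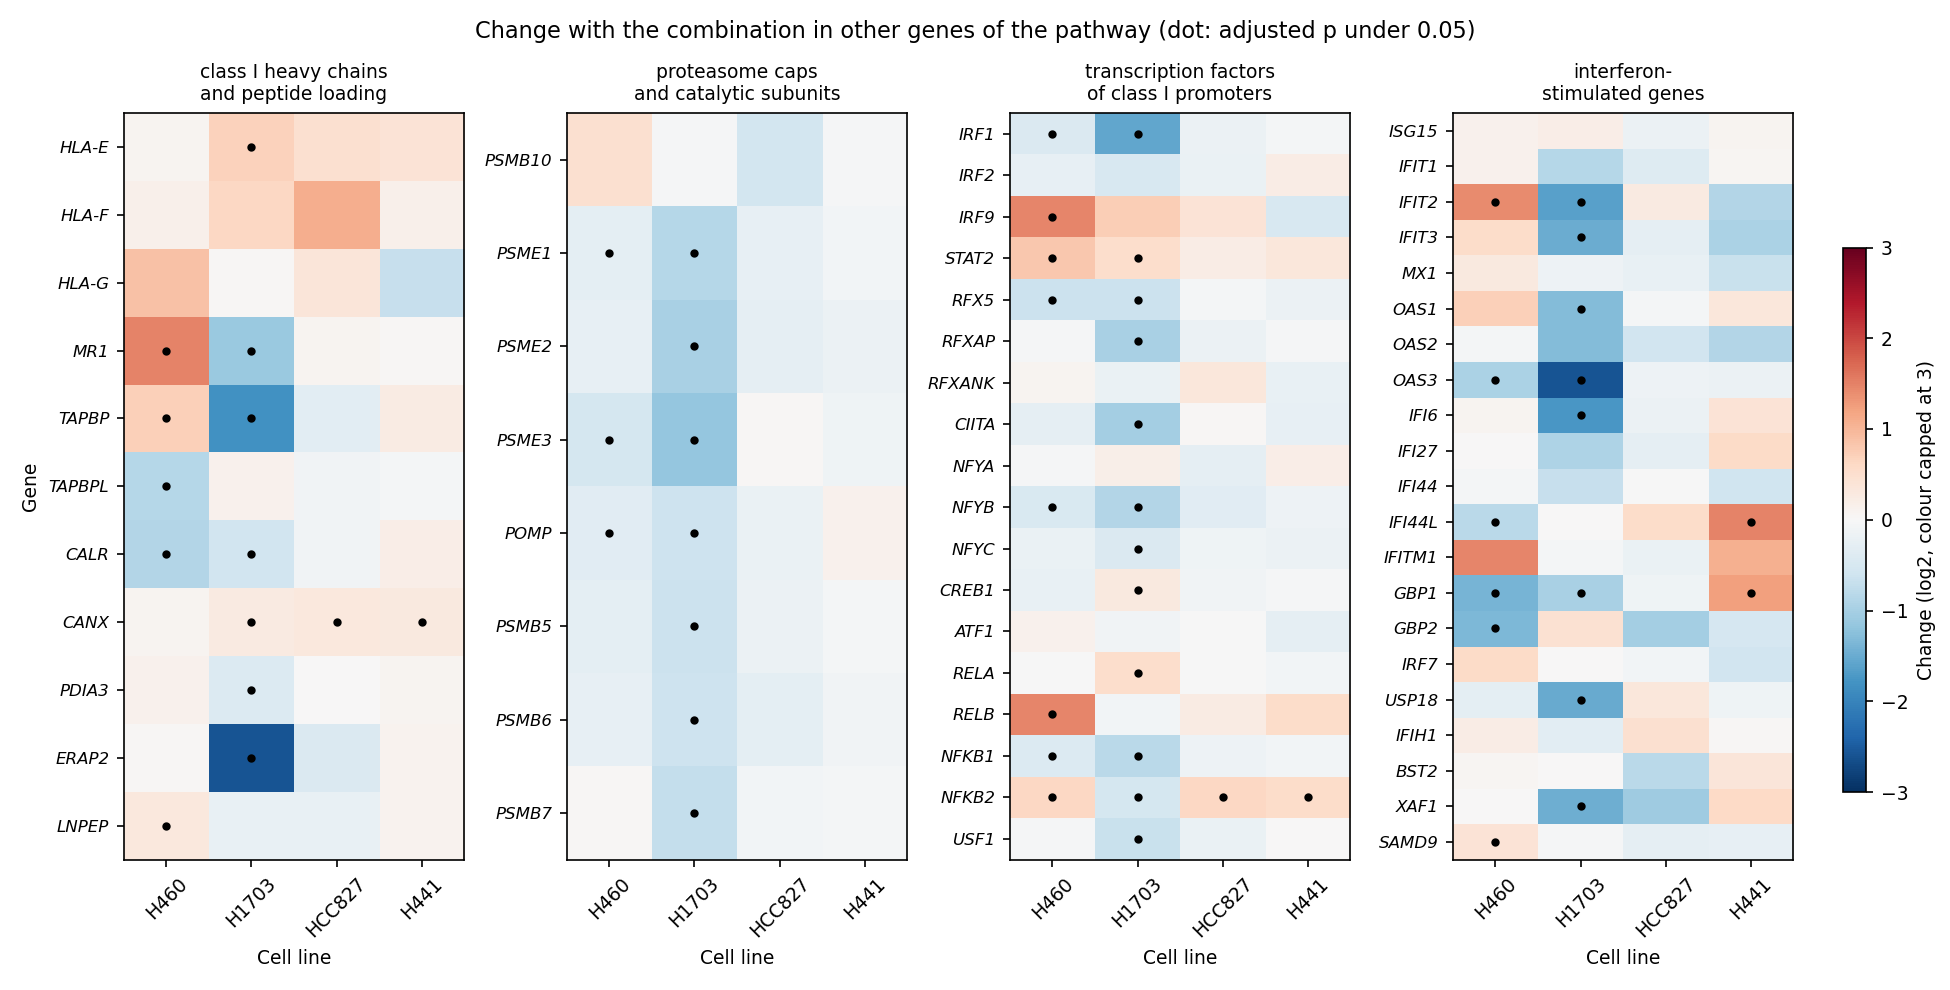
Change with the combination (log2, colour, capped at 3) in 4 of the gene lists, with one row per gene and one column per line. A dot marks an adjusted p under 0.05. The H1703 column is mostly blue in the proteasome, transcription factor and interferon-stimulated panels, with ERAP2 (-2.59) and OAS3 (-2.60) the darkest.

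Class II genes had little signal: of 11 listed, 7 were in the table and 5 were tested. CD74, the invariant chain of class II, was the 1 called, falling in H460 (-0.82 ± 0.22; lost without H460 Vehicle 1, adjusted p = 0.0605) and H1703 (-0.79 ± 0.22; lost without H1703 Vehicle 2, 0.0585, or Combo 1, 0.0895). Of 8 chromatin factors known to repress class I genes, none rose in any line. In both H460 and H1703 7 of them fell, against 3 in HCC827 and 1 in H441. The share of all tested genes called lower was largest for H1703 (17.6%), then H460 (12.6%), HCC827 (5.5%) and H441 (1.86%). Called higher were 17.9%, 14.1%, 4.42% and 2.77%, with the lines in the same order. The CD74 falls stand beside the same lower shares of H1703 and H460. In HCC827 DNMT1 (-0.24 ± 0.074, adjusted p = 0.0449) and SUZ12 (-0.26 ± 0.081, adjusted p = 0.0489) were called. Both calls were lost without any 1 of the 4 HCC827 libraries and in most other alternatives, such as quantile normalisation (adjusted p = 0.11 and 0.0735). EZH2, the catalytic subunit of Polycomb repressive complex 2, fell in all 4 lines, by 0.94 in H1703 (-0.94 ± 0.084), 0.62 in HCC827 (-0.62 ± 0.084), 0.50 in H460 (-0.50 ± 0.084) and 0.35 in H441 (-0.35 ± 0.084), the last lost without any 1 of the 4 H441 libraries (adjusted p up to 0.19). The DNA methyltransferase DNMT1 fell by 1.55 in H1703 (-1.55 ± 0.074) and 1.20 in H460 (-1.20 ± 0.074). SUZ12 (-0.99 ± 0.081) and EED (-0.89 ± 0.10), the other core subunits of the same Polycomb complex, fell in H1703 too, and by 0.61 and 0.69 in H460 (-0.61 ± 0.081 and -0.69 ± 0.10).

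Of 5 ligands of the natural killer cell receptor NKG2D, 3 rose in H460, 1 fell in H1703, 1 rose and 1 fell in HCC827, and none was called in H441. Among all tested genes, 14.1% rose in H460, 17.6% fell in H1703, and 4.42% rose and 5.5% fell in HCC827. ULBP1 went from 42 reads in the 2 H460 vehicle libraries to 318 with the combination and rose by 3.04 ± 0.44 (adjusted p = 1.95e-05). In HCC827 it went from 118 to 421 reads (1.63 ± 0.44, adjusted p = 0.02), a call lost without HCC827 Combo 2 (1.36, adjusted p = 0.212), Vehicle 1 (0.0819) or Vehicle 2 (0.13). ULBP2 rose in H460 (2.23 ± 0.48), from 17 to 82 reads. MICB fell in H1703 (-0.79 ± 0.25), and that call was lost without H1703 Vehicle 2 (adjusted p = 0.187) or Combo 1 (0.147). ULBP3 rose in H460 (0.53 ± 0.16, adjusted p = 0.019) and fell in HCC827 (-0.65 ± 0.16, adjusted p = 0.0131). Its H460 call was lost in 5 alternatives, among them median centring (0.33, adjusted p = 0.175) and the fits without H460 Vehicle 2 (0.212) or Combo 2 (0.108), and its HCC827 call in 4, among them those without HCC827 Vehicle 1 (0.0965), Vehicle 2 (0.0689) or Combo 2 (0.139).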

How the data were processed

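Total RNA was extracted with NucleoSpin RNA columns and made into libraries with a SMARTer stranded kit, per the labels' protocols. Trimmomatic, STAR and featureCounts on hg38 (GRCh38) are named in the submitters' processing notes, with no versions. Neither the annotation release nor the strand setting is stated there or in the labels. The deposited values are variance-stabilised log2 values of gene counts scaled per library, for 28951 genes in 16 libraries. Of the IDs, 28846 matched GENCODE release 29.

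Genes with a mean at least 1 above the lowest value (0.480538) were tested (23968 tested, 4983 removed). limma 3.58.1 (R 4.3.3) was fitted to 8 group means with trend and robust settings, two-sided, with Benjamini-Hochberg adjustment over all tested genes. Reads were recovered by inverting the transformation and dividing out the size factor, with a tolerance of 0.02. The fit was tested on simulated data of 23463 genes, recovering 86 to 90% of 2-fold changes within single lines. Changes were simulated only in genes well covered in the vehicle groups of all lines, which leaves out HLA-B, HLA-C, TAP2 and PSMB9. Counting intervals (95%) and the floor of 3 reads cover counting error only. Alternatives were no filter, median centring, quantile normalisation, no trend or robust settings, 1 line at a time, a replicate block, voom on the recovered reads and leaving out each library.

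The members, gene lists and markers were chosen with earlier results of these data known. Some genes of the lists are not reported here and were left out of the list counts. The text names the 9 members, up to 4 genes of each other list with the largest absolute mean change among those called in at least 1 line, the 3 genes most like TAP1, HLA-B and NLRC5 over 8 group means, and counted genes that overlap a member and were tested. Promoters came from RefSeq (GRCh38.p14) and were searched in Python 3.11.15.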

Additional observations from a re-analysis of the deposited data

Results flagged for a closer look

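Responses to the combination differed among the 4 lines by the moderated F test (limma, Benjamini-Hochberg adjusted) for 7 members, where 31.8% of all tested genes were called. B2M had adjusted p = 1.79e-08, TAP1 1.58e-07, ERAP1 6.82e-07, PSMB9 0.000145, HLA-B 0.000251, PSMB8 0.000433 and NLRC5 0.00509. The NLRC5 call was lost in 2 fits with a library left out and with neither trend nor robust settings. H1703 was the line with the lowest change for each of these 7. The test of the responsive against the non-responsive lines differed for 6 members, at adjusted p = 3.63e-06 for TAP1, 1.68e-05 for B2M, 0.000405 for ERAP1, 0.0048 for PSMB9, 0.00723 for NLRC5 and 0.0134 for PSMB8. All 6 differences were negative, where 12.1% of all tested genes were called lower and 11.2% higher. The PSMB8 call was lost with a library left out. These p-values rest on the spread between libraries and leave out the spread between lines of a class. H460, named responsive like H1703, had no member called lower, where 12.6% of all tested genes were called lower.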

How the results depend on the processing

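Of 1574 alternative values of the members' changes, 1527 kept their direction and side of the threshold, 18 gained a call, 12 lost one and 17 turned direction, and 4 of 34 called changes lost the call at least once (ERAP1 in H460, NLRC5 in H1703 and in the F test, and PSMB8 between the classes). In H460, 1 member was called higher with median centring, with only the line's libraries and with neither the trend nor the robust setting, and 1 to 3 with a library left out, where 0 to 1 was called lower. In HCC827, 2 were called higher with neither setting, with only the line's libraries and with voom. In H441, 1 was called higher with voom, and over all lines 2 with neither setting. Median centring turned the uncalled changes of TAP1 (-0.11) and PSMB9 (-0.15; -0.16 with quantile normalisation) in H460, of B2M in HCC827 (-0.011; -0.0092 with voom) and of the NLRC5 mean (-0.012; -0.018 with quantile normalisation). It also turned the vehicle differences of B2M between H1703 and HCC827 (0.068) and of PSMB8 between H460 and HCC827 (0.15; 0.032 with quantile normalisation). With a library left out, values that turned ran from -1.83 to 0.25 for HLA-C and -0.033 to 0.11 for PSMB9 in H460, from -0.22 to 0.25 for B2M, -0.18 to 0.63 for PSMB9 and -0.031 to 0.16 for ERAP1 in HCC827, from -0.41 to 0.11 for the HLA-C mean and -0.012 to 0.21 for the NLRC5 mean. Vehicle differences that turned ran from -0.011 to 0.45 for PSMB8 (H1703 minus H441), -0.28 to 0.0081 for B2M (H1703 minus HCC827) and -0.10 to 0.057 for PSMB8 (H460 minus HCC827). Over all genes, the calls went from 6398 to 3626 in H460 with only its libraries, from 2378 to 1183 and 1299 in HCC827 and from 1110 to 364 and 0 in H441 with neither setting and with only the line's libraries. Leaving out a library gave 1013, 1214 and 1403 in HCC827 (without Combo 2, Vehicle 1 or Vehicle 2) and 499 to 575 in H441. The cause of these moves was not tested. Median centring shifted the changes by -0.19 in H460, -0.24 in H1703 and -0.11 in the mean, and took the share of calls that were higher from 52.7 to 32.6%, from 50.4 to 31.1% and from 52.4 to 34.6%. Replicate numbers did not pair the samples, with correlations of deviations between -0.022 and 0.032, and a replicate block kept 70 of 70 member results on their side, among them B2M in H1703 at -2.39, and 56 of 58 called changes of the other named genes. Of those 58 called changes 26 lost the call at least once. Counts of under 10 reads limit HLA-C in H460, PSMB9 and vehicle TAP2 in H441, and the vehicle base of the HLA-B rises in H460 (4 and 3 reads) and HCC827 (7 in 1 library).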
